A study of Mus musculus with 8 samples.

Results

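CD numbers name molecules of the leukocyte surface that antibodies recognise, and 17 such genes of a 754-gene NanoString nCounter immune panel are described here. They are the genes whose symbol starts with Cd and a digit, after 12 of the 29 on the panel were set aside by name. The assay tallies barcoded probes hybridised to unamplified RNA. Balb/c mice carried grafts of 4T1, a mouse mammary carcinoma line, and cells were taken from their lungs. Of 24 mice, a placebo group received DMSO and the other group received DSHN, which activates the nuclear receptor NR0B2, each daily for 7 days from day 10 after the graft, with a labelled dose of 10 mg/kg. Each sample held the lungs of 3 mice of 1 treatment, so that the 4 DMSO and 4 DSHN samples were pools of different mice. Cells were isolated with CD11b and CD11c beads. All samples carried the tumour graft, so no tumour-free level is known. The genes were compared between DSHN and DMSO, within a study of whether NR0B2 has a part in breast cancer metastasis.

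Surface molecules of this kind do different jobs. CD47 is displayed by most cells and tells phagocytes not to eat them, the SLAM receptor CD84 binds its own kind on neighbouring leukocytes, and CD83 and CD69 appear when cells are activated. CD38 breaks down NAD outside the cell, CD180 restrains Toll-like receptor signalling in myeloid cells, CD44, CD99 and CD151 serve adhesion and migration, and CD1d presents lipids to NKT cells. CD28, CD27, CD70, CD40 ligand and CD276 take part in costimulation between antigen-presenting cells and lymphocytes. NR0B2 itself has no DNA-binding domain and acts by repressing other transcription factors.

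Values are on a log2 scale, set per sample to the mean of 4 housekeeping genes (Oaz1, Ppia, Rpl19, Tubb5). This housekeeping scale is used unless stated otherwise. Counts were recovered from the deposited values, and a gene was above background where its count passed the mean plus 2 SD of that sample's 8 negative-control probes. Recovered counts over all genes were 532672 to 923796 in 7 samples and 123773 in DSHN 1. The background limit of DSHN 1 lay at 7.69 on the housekeeping scale, against 3.77 to 5.11 in the other samples, so faint genes carry only an upper bound there. In DMSO 1 the spike-in probes gave a geometric mean count of 562.6, and in the other samples 3281 to 6392. DMSO 1 also had the highest Itgam (CD11b) value, 10.96 against 8.14 to 9.24, and the lowest Itgax (CD11c) value, 7.53 against 9.06 to 9.87. The labels call the cells dendritic cells. Of 9 dendritic cell markers on the panel, Itgax was above background in all 8 samples, Ccr7, Irf4, Irf8 and Batf3 in 7 each, Lamp3 in 5, Flt3 in 2, Clec9a in 1 and Xcr1 in 0. Of 8 neutrophil markers, 7 were above it in all 8 samples and Camp in 7.

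Of the 17 CD-numbered genes, 10 were above background in at least 6 samples, 5 of them in all 8 (6 if counts are not rounded, which adds Cd180). These 10 were Cd47, Cd84, Cd180, Cd83, Cd69, Cd38, Cd44, Cd99, Cd151 and Cd1d1. Cd28 passed in 5 samples and Cd1d2 in 2. The remaining 5 genes, Cd27, Cd70, Cd40lg, Cd276 and Cd209e, passed in 0. Genes had to reach a deposited linear value of 20 in 4 samples to be tested, and 11 of the 17 did. They were tested together with the rest of the panel, 554 genes in all.

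None of the 11 tested genes passed the threshold in limma (0 of 11, lowest adjusted p = 0.925), nor did any other gene, so that the share called over all 554 genes was 0%. At an unadjusted p under 0.05, 0 of the 11 were counted, against 3.61% of all genes tested (20 of 554). Of the 11, 6 had a higher and 5 a lower mean in DSHN. The median of their differences was 0.03, as it was over all 554 genes, 53.4% of which had a higher mean in DSHN. The differences ran from -0.49 for Cd180 to 0.57 for Cd99. In 1 of the 11, Cd84, all DSHN samples lay on one side of all DMSO samples, while 3.25% of the genes tested (18 of 554) had such groups. On the values as deposited, where the whole panel was lower in DSHN by a median of -1.87, all 11 were lower, by -1.33 to -2.39. The deposited housekeeping mean was 13.37 in DMSO 1 and 7.86 in DSHN 1. In the other samples it was 10.98 to 11.80 in DMSO and 10.50 to 10.84 in DSHN. In bulk samples such as these, fewer cells of a type and less RNA per cell cannot be told apart.

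**Figure D1:**
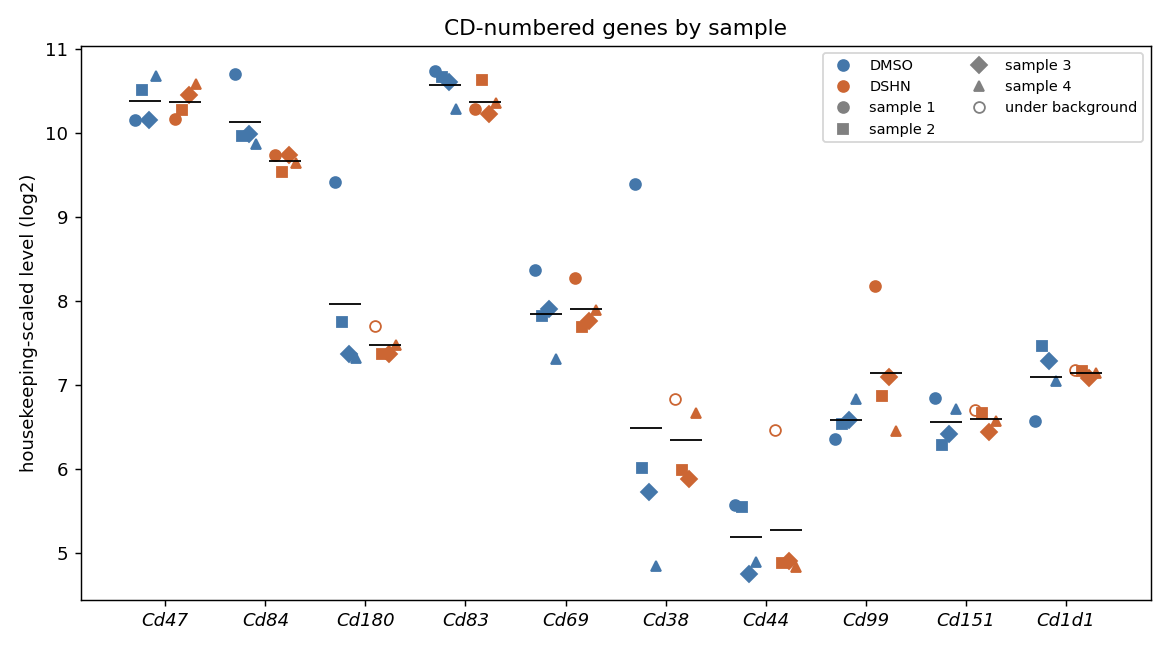
Housekeeping-scaled level (log2) of the 10 CD-numbered genes above background in at least 6 samples. Each point is 1 sample, blue for DMSO and orange for DSHN, with a shape per sample number, open where under background, and a black line at the group mean. Cd84 is the gene whose groups do not overlap, with 9.54 to 9.74 in DSHN and 9.87 to 10.70 in DMSO, and DMSO 1 stands above the other samples for Cd38 and Cd180.

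Promoter windows are shown for 4 of these genes from RefSeq (GRCm38.p6, the C57BL/6J reference, not the Balb/c genome). Cd84 is shown for its separated groups, Cd38 and Cd180 because they varied most among the 10 well-detected genes, and Cd47 because it was among the steadiest. Each window holds the 250 bases before a transcription start in that table, the most upstream listed there, 5′ to 3′ on the plus strand, at chr1:171839447-171839696 for Cd84, chr5:43868559-43868808 for Cd38, chr13:102693297-102693546 for Cd180 and chr16:49855404-49855653 for Cd47. The Cd47 window lies inside the annotated gene, which begins farther upstream. Capitals mark matches to 6 motifs searched on both strands.
Cd84: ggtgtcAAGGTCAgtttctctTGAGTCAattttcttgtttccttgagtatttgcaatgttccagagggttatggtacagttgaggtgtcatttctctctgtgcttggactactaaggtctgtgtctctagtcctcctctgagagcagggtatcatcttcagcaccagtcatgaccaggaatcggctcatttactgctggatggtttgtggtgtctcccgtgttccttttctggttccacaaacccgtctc
Cd38: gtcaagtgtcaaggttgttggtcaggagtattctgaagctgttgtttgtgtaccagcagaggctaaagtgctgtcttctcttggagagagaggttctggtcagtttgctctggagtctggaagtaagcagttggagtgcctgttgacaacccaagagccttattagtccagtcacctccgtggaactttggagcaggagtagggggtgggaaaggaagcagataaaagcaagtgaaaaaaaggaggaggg
Cd180: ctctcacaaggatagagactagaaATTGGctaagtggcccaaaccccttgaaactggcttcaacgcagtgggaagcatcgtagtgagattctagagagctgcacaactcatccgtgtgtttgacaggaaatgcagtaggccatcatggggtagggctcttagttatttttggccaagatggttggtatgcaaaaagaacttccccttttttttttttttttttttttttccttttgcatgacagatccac
Cd47: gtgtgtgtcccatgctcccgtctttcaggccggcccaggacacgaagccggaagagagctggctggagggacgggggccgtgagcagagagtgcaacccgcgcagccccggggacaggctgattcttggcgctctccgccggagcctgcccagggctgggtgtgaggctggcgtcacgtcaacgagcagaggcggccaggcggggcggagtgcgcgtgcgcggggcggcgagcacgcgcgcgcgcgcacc

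The motifs were GAGGAA (the core of the myeloid factor PU.1), TGANTCA (AP-1), TATAAA (the TATA box), AAGGTCA (a nuclear receptor half-site), CCAAT and the kappa B motif, none of which overlap in these windows. In Cd84 the half-site began 244 bases and the AP-1 motif 229 bases before the start. Of all 32851 promoter windows of this length, 4.08% held the half-site and 6.75% the AP-1 motif. In Cd180 the match was an inverted CCAAT 226 bases before the start, a motif found in 33.8% of windows. The windows of Cd38 and Cd47 held 0 of the 6. PU.1 cores were found in 23.3% of all windows, TATAAA in 12.4% and the kappa B motif in 0.356%. The window of Cd47 held 30 CpG pairs and that of Cd38 held 1, with 3 each in Cd84 and Cd180, where the median window held 6. These are matches of letters, and binding was not measured.

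Cd47, the signal that inhibits phagocytosis, was level across the samples. Its values were 10.16, 10.52, 10.16 and 10.68 in DMSO samples 1 to 4 and 10.17, 10.28, 10.45 and 10.59 in DSHN samples 1 to 4. The groups covered nearly the same range, and the gene spanned only 0.52 between its lowest and highest sample, where the median over the genes tested was 1.47. The difference was -0.01 ± 0.20 (SE), with a 95% interval of -0.46 to 0.45 (limma, adjusted p = 0.996). Sirpa, the receptor for CD47 on myeloid cells, was above background in all 8 samples and differed by -0.18 ± 0.21.

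Cd84 was lower in every DSHN sample than in any DMSO sample, without passing the threshold. On the housekeeping scale DMSO samples 1 to 4 had 10.70, 9.97, 9.99 and 9.87, and DSHN samples 1 to 4 had 9.74, 9.54, 9.73 and 9.65. The DSHN samples lay within a narrow band, while DMSO 1 stood above the other DMSO samples. The group means were 10.13 ± 0.38 and 9.66 ± 0.09 (SD, n = 4 each), a ratio of DSHN to DMSO of 0.724. The log2 difference of -0.47 had a 95% interval of -0.97 to 0.03 (limma, adjusted p = 0.925). An exact two-sided permutation test gave p = 0.0286, the smallest that 70 assignments allow, and 0.879 after adjustment over 554 genes. Without DMSO 1 the difference was -0.28. Of the SLAM family genes and adaptors listed as partners, Cd244 alone was on the panel, and it differed by -0.03 ± 0.39.

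DMSO 1, where Cd84 was highest, also differed from the other samples in markers of cell types. The summed level of 9 monocyte and macrophage markers, 4 of them above background in all 8 samples, was 9787 in DMSO 1 and 3933 to 5369 in the other 7 samples. Summed over 8 neutrophil markers it was 223927 there, against 69244 to 155935. All 8 neutrophil markers were highest in DMSO 1, as were 5 of the 9 monocyte and macrophage markers, while Mertk, an efferocytosis receptor, was lowest there. Summed dendritic cell markers were lowest in DMSO 1, at 802.1 against 1278 to 1642. Of these 9 markers, 4 were lowest and 0 highest there. In the other 7 samples Itgax was the brightest of the 9, at 9.06 to 9.87, and in DMSO 1 it was at 7.53. The sum of 5 eosinophil markers, 2 of them above background in all 8 samples, was also lowest in DMSO 1, at 318.3 against 695.2 to 2196. Epx was under background throughout, and Ccr3 and Il5ra were under it in DMSO 1. By group, the macrophage sum ran from 4325 to 9787 in DMSO and from 3933 to 5369 in DSHN, and the neutrophil sum from 83263 to 223927 and from 69244 to 155935. No macrophage or neutrophil marker was under background in all samples. Pf4, a platelet gene, was at 915.3 in DMSO 1 and at 28.6 to 154.9 elsewhere. The part of these markers in the Cd84 difference was not tested.

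Cd180, the relative of Toll-like receptor 4 on B cells and myeloid cells, had a single high sample. The 4 DMSO samples had, in order, 9.42, 7.75, 7.37 and 7.32, and DSHN samples 1 to 4 had 7.70, 7.37, 7.36 and 7.48. Apart from DMSO 1, all samples fell between 7.32 and 7.75, and the groups overlapped. DSHN 1, at 40 counts, lay at its background limit of 40.1, and it is placed under the limit only because counts were rounded to whole numbers. The difference over all samples was -0.49 ± 0.43 (limma, adjusted p = 0.925), and it was -0.00083 without DMSO 1. Tlr4 differed by -0.26 ± 0.29 and was also highest in DMSO 1, at 9.59.

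Cd38, the NAD-consuming ectoenzyme, varied more than any other well-detected gene of the group. In DMSO samples 1 to 4 it was at 9.40, 6.01, 5.72 and 4.84, and in DSHN samples 1 to 4 at 6.83, 5.99, 5.87 and 6.67. DMSO held both the highest and the lowest sample, 23.6-fold apart, and the DSHN 1 value was under background, at 22 counts. The difference was -0.15 with a 95% interval of -2.02 to 1.72 (limma, adjusted p = 0.986). Without DMSO 1 it turned to 0.82 (adjusted p = 0.899), and without both DMSO 1 and DSHN 1 it was 0.66 (adjusted p = 0.987). No direction can be given for Cd38 from these samples. The summed macrophage and neutrophil markers were also highest in DMSO 1. In DMSO 4, where Cd38 was lowest, the macrophage sum was 5279, above those of DMSO 2 and DMSO 3. The complement genes C1qa, C1qb and C3, which are outside that sum, were highest in DMSO 1 and lowest in DMSO 4. C1qa was at 10.28 and 6.70 in these samples and C1qb at 10.51 and 6.60. C5ar1 was highest in DMSO 1 but lowest in DMSO 3. The part of these markers and genes in the Cd38 values was not tested.

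Cd83, which marks mature dendritic cells and helps keep MHC class II and CD86 on the surface, was close between the groups. Its DMSO samples 1 to 4 had 10.74, 10.67, 10.61 and 10.29, and DSHN samples 1 to 4 had 10.29, 10.63, 10.22 and 10.36. Of the DMSO samples 3 lay near the top of the range and of the DSHN samples 1 did, with overlap. The difference was -0.20 ± 0.19 (limma, adjusted p = 0.925), with a 95% interval of -0.63 to 0.23, and it kept its sign when any 1 sample was left out (-0.30 to -0.15). Cd86, the costimulatory ligand of CD28, differed by -0.30 ± 0.26, and Pdcd1lg2, the ligand PD-L2, by 0.35 ± 0.27. The summed level of the 9 dendritic cell markers, 1 of them above background in all 8 samples, was 802.1 to 1423 in DMSO and 1335 to 1642 in DSHN. The 802.1 came from DMSO 1, where Itgax was at 7.53 against 9.06 to 9.87 elsewhere. Xcr1 was under background throughout. In DSHN 1, which gave the 1642, Itgax alone was above it, at 9.28 against a limit of 7.69. The part of this sum in the Cd83 values was not tested.

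Cd69, the early activation lectin that holds cells in tissue by binding S1PR1, showed no separation. Levels in DMSO samples 1 to 4 were 8.37, 7.82, 7.90 and 7.31, and in DSHN samples 1 to 4 8.28, 7.69, 7.76 and 7.90. The first sample of each group was its highest. All DSHN samples lay within the DMSO range, and DMSO 4 was below every DSHN sample. The difference was 0.06 ± 0.26 with a 95% interval of -0.53 to 0.64 (limma, adjusted p = 0.980). It was -0.12 without DMSO 4 and -0.06 without DSHN 1. S1pr1, the lymphocyte egress receptor, differed by 0.46 ± 0.50 and was above background in 4 DMSO and 3 DSHN samples.

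**Figure D2:**
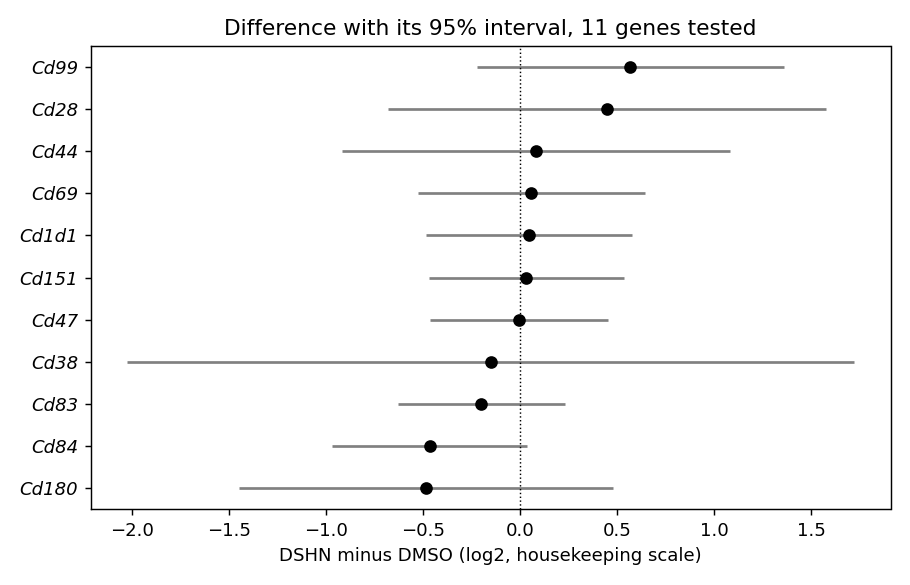
DSHN minus DMSO difference (log2, housekeeping scale) of the 11 CD-numbered genes tested, with points for the estimate and lines for the 95% interval from limma. Every interval includes 0, from Cd180 at -0.49 to Cd99 at 0.57.

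Among the adhesion molecules, Cd99, which leukocytes use to cross the vessel wall, had the largest positive difference of the 11. Here DMSO samples 1 to 4 had 6.36, 6.54, 6.58 and 6.84, and DSHN samples 1 to 4 had 8.18, 6.87, 7.09 and 6.45. In DSHN, 3 of the 4 samples were above all DMSO samples, DSHN 1 by a wide margin, and DSHN 4 fell among them. The difference was 0.57 ± 0.35, a ratio of 1.48, with a 95% interval of -0.22 to 1.36 (limma, adjusted p = 0.925). Without DSHN 1, where Cd99 had 56 counts against a limit of 40.1, it was 0.23, and without both DMSO 1 and DSHN 1 it was 0.15. The summed level of 3 endothelial markers, of which 0 were above background in all 8 samples, was 35.9 to 53.4 in DMSO and 62.1 to 372.4 in DSHN. Cdh5 was above background in 1 DMSO and 3 DSHN samples, Cd34 in 2 and 3, and Tek in 0 and 1. Most of the DMSO values in this sum were therefore under background. The 372.4 came from DSHN 1, where all 3 were under background, at 6.70 to 7.23 against a limit of 7.69. The part of this sum in the Cd99 values was not tested.

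Cd44, the hyaluronan receptor, gave counts of 17 to 72 and so lay near background. Values in DMSO samples 1 to 4 were 5.57, 5.55, 4.74 and 4.89, and in DSHN samples 1 to 4 6.46, 4.88, 4.90 and 4.83. The high DSHN 1 value was under background, and the other DSHN samples lay within the DMSO range. The difference of 0.08 ± 0.45 (limma, adjusted p = 0.986) turned to -0.32 without DSHN 1.

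Cd151, a tetraspanin that partners with laminin-binding integrins, was steady. The DMSO samples, 1 to 4, had 6.84, 6.28, 6.42 and 6.71, and DSHN samples 1 to 4 had 6.70, 6.67, 6.43 and 6.57, the first of these under background at 20 counts. DSHN values lay inside the DMSO range. The difference was 0.03 ± 0.22, with a 95% interval of -0.47 to 0.53 (limma, adjusted p = 0.991), and without DMSO 2 it was -0.06. Itgb1, the integrin beta chain that CD151 associates with, differed by -0.06 ± 0.19, and the beta chain Itgb2 by -0.12 ± 0.20. Tspan7, another tetraspanin gene, had the smallest p of the partner genes and differed by 1.60 ± 0.53 (limma, adjusted p = 0.925). It was above background in 3 samples of each group. Its lowest value, 3.53 in DMSO 1, and its highest, 7.28 in DSHN 1, were the ones under background.

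Cd1d1, the lipid-presenting molecule, had tightly grouped DSHN values. Across DMSO samples 1 to 4 the values were 6.57, 7.47, 7.29 and 7.05, and in DSHN samples 1 to 4 7.18, 7.16, 7.08 and 7.14. The DSHN samples lay within the DMSO range, with an SD of 0.04 against 0.39 in DMSO, where DMSO 1 was the lowest of all 8 samples. DSHN 1 was under background here, at 28 counts. The difference was 0.05 ± 0.24, with a 95% interval of -0.48 to 0.58 (limma, adjusted p = 0.981), and -0.13 without DMSO 1. Cd1d2, its neighbour on chromosome 3, is annotated as a transcribed pseudogene in the C57BL/6J reference. It gave 12 to 32 counts, above background in DMSO 2 and DSHN 4, and was not tested. Its probe could share RNA with Cd1d1, since the genes are close copies.

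**Figure D3:**
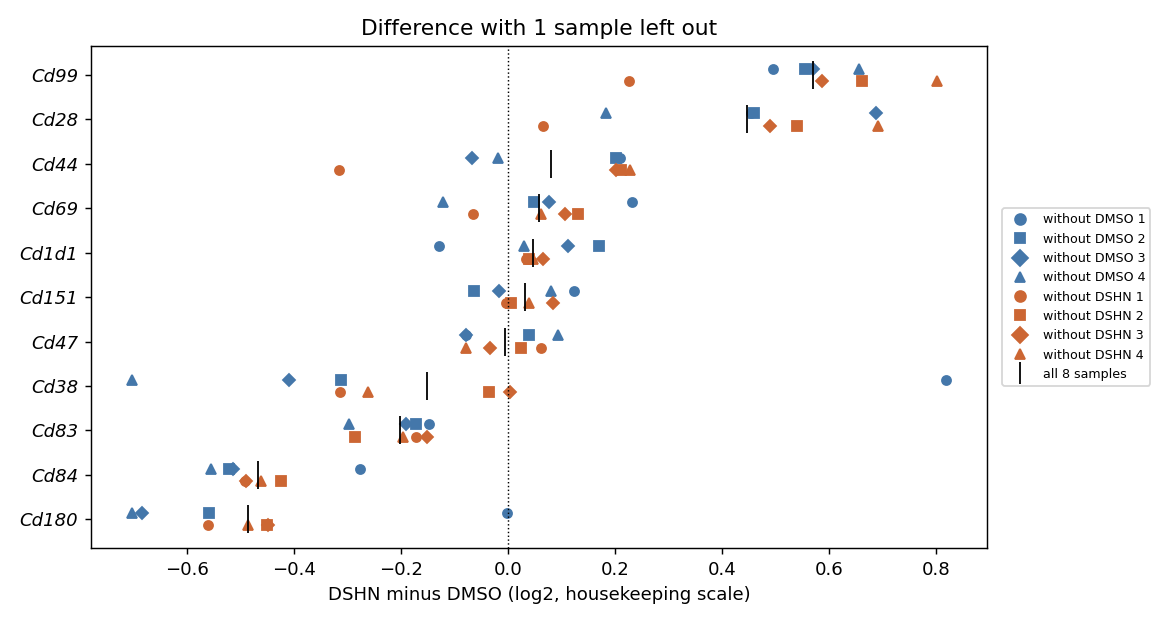
DSHN minus DMSO difference (log2, housekeeping scale) of the 11 genes tested when each sample is left out in turn, blue for a DMSO sample and orange for a DSHN sample, with a black bar for all 8 samples. Cd38 moves from -0.15 to 0.82 and Cd180 from -0.49 to about 0 without DMSO 1, while Cd84, Cd83, Cd99 and Cd28 stay on one side of 0.

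Of the costimulatory molecules of lymphocyte contacts, Cd28 alone was above background in any sample. Cd28, the T cell receptor for CD80 and CD86, gave 19, 38, 49 and 15 counts in DMSO samples 1 to 4 and 14, 30, 26 and 18 in DSHN samples 1 to 4. It was above background in 2 DMSO and 3 DSHN samples, the last of them, DSHN 4, by less than 1 count. Its difference on the housekeeping scale was 0.45 ± 0.50 (limma, adjusted p = 0.925), and without DSHN 1, where it was under background, 0.06. Of 9 listed T cell markers, Cd247 alone was on the panel, and its level was 15.4 to 30.03 in DMSO and 37.2 to 180.5 in DSHN. Cd247 was above background in 3 samples of each group. The lowest value, in DMSO 1, and the highest, in DSHN 1, were under it. In the samples above background the level was 22.7 to 30.03 in DMSO and 37.2 to 55.1 in DSHN. Icos, Lat and Ctla4 are T cell genes on the panel outside that list. Icos was above background in 2 samples of each group and differed by 0.41 ± 0.45. Lat was above it in 3 DMSO samples and 1 DSHN sample and differed by 0.64 ± 0.62. Ctla4 was above it in 2 DMSO and 0 DSHN samples and was not tested. The part of Cd247 in the Cd28 values was not tested.

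Cd27, a TNF receptor of lymphocytes, gave 8 to 14 counts in all samples, and its ligand Cd70 gave 2 to 21. Cd40lg, the T cell ligand of CD40, gave 3 to 11 counts. Cd276, the B7 family molecule B7-H3, gave 8 to 20, and Cd209e, a mouse relative of the lectin DC-SIGN, gave 4 to 14. None of these passed the limit of its sample, which lay between 17.9 and 40.1 counts, and no difference is given for them. All 5 had their highest housekeeping-scaled value in DSHN 1, the sample with the highest limit on that scale. At this depth their transcripts were not detectable, which is not to say absent. Cd40, the receptor for CD40 ligand, was above background in 4 DMSO and 3 DSHN samples and differed by -0.40 ± 0.52.

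**Figure D4:**
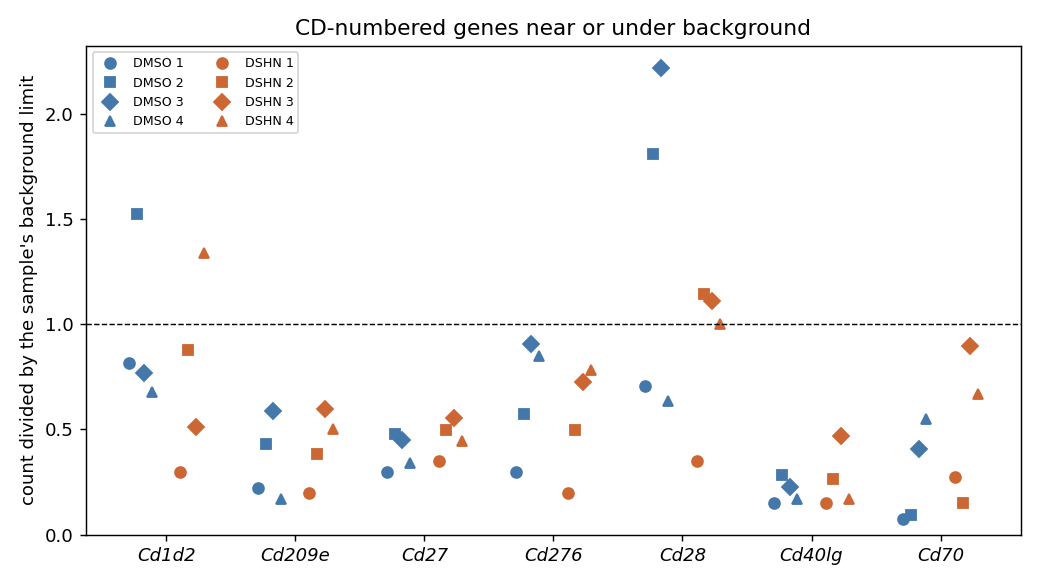
Recovered count divided by the background limit of the same sample, for the 7 CD-numbered genes above background in fewer than 6 samples. Points are samples, blue for DMSO and orange for DSHN with a shape per sample number, and the dashed line marks the limit. Only Cd28 and Cd1d2 reach above the line, and Cd28 in DSHN 4 lies on it.

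Partners and relatives of these molecules were followed as a list of their own. Of 23 on the panel that are not among the 17, 19 were tested, 6 were higher and 13 lower in DSHN, and 0 passed the threshold. Their median difference was -0.06, beside 0.03 over all genes tested. Of the 4 complement genes tested, 0 passed. C3 differed by -0.38 ± 0.40, C1qb by -0.40 ± 0.72, C1qa by -0.21 and C5ar1 by -0.04. C1qa was 10.28 in DMSO 1 and 6.70 to 8.77 in the other samples. Siglec1, a sialic acid receptor of macrophages, differed by -0.47 ± 0.37 and was highest in DMSO 1 too.

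Among the samples, DMSO 1 often had an extreme value. Of the 10 well-detected genes, 6 (Cd84, Cd180, Cd38, Cd83, Cd69 and Cd151) were highest in DMSO 1, and 3 were lowest there (Cd1d1, Cd99 and Cd47, the last tied with DMSO 3). Over all 510 genes above background in at least 6 samples, 42.9% were highest and 16.1% lowest in DMSO 1. Without both DMSO 1 and DSHN 1, the 11 tested genes had a higher DSHN mean in 5 and a lower one in 6. Their median difference was then -0.01 beside 0.06 over all genes, and 0 passed the threshold in limma. In that comparison the largest differences were 0.66 for Cd38 and -0.30 for Cd84.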

How the data were processed

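The members, lists and scaling were chosen with earlier results of these data known. The deposited table holds 768 nCounter probes in 8 samples, as log2 values with 2 decimals deposited by the authors; software and probe design are not given in the sources used here. Judged from the values, low gene values are whole multiples of 1 step per sample, close to the factor of 5 positive controls (0.604 to 6.82), so the deposited values carry a spike-in factor. Counts were recovered by removing it and rounded, exact only when low. The background limit was the mean plus 2 SD of 8 negative controls. Values were scaled to Oaz1, Ppia, Rpl19 and Tubb5, which is assumed not to respond to treatment.

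DSHN was compared with DMSO in limma 3.58.1 (R 4.3.3) with a variance trend, without covariates, on 554 genes, with Benjamini-Hochberg adjustment over all of them at 0.05. The code was tested on simulated data. Members above background in at least 6 samples that were among the 6 higher and 6 lower with the smallest p, or the 6 highest means, were given by sample, the others by counts or ranges, and up to 2 partners per role by smallest p. Itgb1, Cd40, C1qa and C5ar1 were named in addition, after their values were seen. Same-numbered samples did not deviate together (r = -0.18, 0.14, 0.02 and -0.29 across genes), so the numbers were not taken as pairs. All 17 symbols matched RefSeq, and 9 had a promoter there. Alternatives covered scaling, filters, background, variance model, weights, block and samples.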

Additional observations from a re-analysis of the deposited data

Results flagged for a closer look

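Within its group of 4 samples, 2 values stood far from the other 3 by a gap-to-range test, which chance alone flags in about 1 of 20 groups; 34 groups were looked at. Cd84 was 10.70 in DMSO 1 and 9.87 to 9.99 in the other DMSO samples. Cd44 was 6.46 in DSHN 1, where it was under background, and 4.83 to 4.90 in the other DSHN samples.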

How the results depend on the processing

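None of the members passed under any alternative run (0 in each), and over all genes 0 passed except with sample weights, where 1 did (limma, with DMSO 1 and DSHN 1 given the lowest weights). Sample numbers as a replicate block changed no call (0 genes, 0 members, with 6 members higher and a median of 0.03); genes at an unadjusted p under 0.05 numbered 11 with it and 20 without. Over the other alternatives on all 554 genes that number ran from 11 to 43, and was 196 on deposited values. Members higher in DSHN numbered 6 of 11, but 0 on deposited values, 3 after quantile normalization, 2 with background subtracted, 5 with sample weights, 7 with median centring, 8 with 3 housekeeping genes, 4 to 7 with 1 sample left out, 2 of 5 among genes above background in all samples and 12 of 17 with no filter. Their median difference was -1.87 on deposited values. There Cd151, Cd1d1, Cd44, Cd69 and Cd99 differed by -1.87, -1.86, -1.82, -1.84 and -1.33, through the shift common to the panel. Scaling to 3 housekeeping genes, without Tubb5, put the median of all genes at 0.20, and Cd38 and Cd47 were at 0.02 and 0.16; median centring put Cd47 at 0.019. Quantile normalization gave -0.25 for Cd151, -0.074 for Cd1d1, -0.38 for Cd44 and 0.092 for Cd47. Subtracting background moved the median of all genes to -0.20, with Cd151 at -0.60, Cd1d1 at -0.25, Cd44 at -1.03 and Cd69 at -0.038. Sample weights gave -0.23 for Cd1d1, 0.21 for Cd38 and -0.39 for Cd44. Without both DMSO 1 and DSHN 1, Cd1d1, Cd38 and Cd44 were at -0.14, 0.66 and -0.19. Leaving out 1 sample moved Cd1d1 between -0.13 and 0.17, Cd38 between -0.70 and 0.82, Cd151 between -0.063 and 0.12, Cd44 between -0.32 and 0.23, Cd47 between -0.079 and 0.093 and Cd69 between -0.12 and 0.23. The cause of these turns of sign was not tested. Cd84, Cd83, Cd180 and Cd99 kept their sign in every alternative run on the housekeeping scale. Detection without rounded counts, an alternative chosen after seeing the data, put 6 members above background in all samples in place of 5. Depth limits the faint genes most in DSHN 1.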
